A study of Mus musculus with 6 samples.

Results

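The genes described here are 31 genes of the lysosome, chosen by name and grouped by role into 14 hydrolases, 2 soluble proteins without enzyme activity, 6 membrane proteins, 6 subunits of the proton pump and the 3 transcription factors Tfeb, Tfe3 and Mitf. All 31 had at least 1 probe on the array. They accounted for 44 of its 55681 non-control probes and 31 of its 34797 gene names. The study compared Foxo3 siRNA with nontargeting siRNA in G1E-ER-GATA-1 cells, with 3 arrays per siRNA. G1E-ER-GATA-1 is a line of mouse erythroid precursors in which the endogenous GATA-1 is missing and a fusion of GATA-1 with the ligand-binding part of the estrogen receptor stands in for it, so estradiol starts maturation. Cells of both groups were nucleofected with siRNA at 0 h and again at 24 h, received β-estradiol at 24 h, and gave RNA at 48 h, so every sample had active ER-GATA-1 and none was left without estradiol. The cells grew with erythropoietin and Kit ligand, both groups came from the same line, and the labels do not say whether the replicates were separate cultures, so the p-values describe the spread among these RNA samples, which may be technical.

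Lysosomes break down proteins, glycans, lipids and nucleic acids with acid hydrolases. A proton pump of the vacuolar type, with a membrane sector (V0) and an ATP-splitting sector (V1), acidifies them. Many lysosomal genes carry E-boxes in their promoters, known as CLEAR elements, which TFEB and its relatives TFE3 and MITF bind, and mTORC1 at the lysosome surface holds TFEB in the cytoplasm by phosphorylation. In maturing erythroid cells lysosomes receive mitochondria and other organelles by autophagy, and FOXO3 is known as an activator of autophagy genes in this lineage.

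The stretches below are examples of the E-box core in promoters of hydrolases, membrane proteins and the pump. They are taken from RefSeq (GRCm38.p6) and read 5′ to 3′ on the strand of the gene, with the E-box core CACGTG in capitals.
Ctsd, chr7:142387903-142387942: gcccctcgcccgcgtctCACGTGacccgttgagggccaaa
Atp6v1a, chr16:44139368-44139407: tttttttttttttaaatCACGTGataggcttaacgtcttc
Lamp1, chr8:13159091-13159160: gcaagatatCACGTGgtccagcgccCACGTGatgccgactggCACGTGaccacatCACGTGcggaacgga
Mcoln1, chr8:3500439-3500488: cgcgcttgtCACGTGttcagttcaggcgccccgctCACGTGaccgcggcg
Gla, chrX:134601182-134601241: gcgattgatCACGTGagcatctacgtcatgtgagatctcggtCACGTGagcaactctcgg
Ctsd and Gla encode hydrolases, Lamp1 and Mcoln1 membrane proteins and Atp6v1a a pump subunit, so the core stood in promoters of each of these roles. The stretch of Lamp1 held 4 cores within 70 bases.

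Each array held 62976 spots, of which 20343 to 37532 non-control spots were well above background, and no spot was saturated. The lowest number was on Foxo3 siRNA replicate 3, whose lowest signal was 24.1 against 3.48 to 4.29 on the other arrays. Foxo3 itself had a log2 change of −2.43 on its RefSeq probe (SE 0.34, adjusted p = 0.00533 in limma over all probes), and its 3 Foxo3 siRNA arrays did not overlap the 3 nontargeting arrays. The RefSeq probe was bright (well above background) on only 2 of these 3 Foxo3 siRNA arrays. It entered the fit by way of the nontargeting group, which favours a negative change. A second Foxo3 probe, on AK143198, was bright on every array and stood for the gene name in the main comparison. Its change was 0.25 (adjusted p = 0.259 over all probes). Of 10 erythroid marker genes, 9 or 10 were well above background on every array. The arrays lay in 2 rows of the same slide, and 2 of the 3 Foxo3 siRNA arrays made up the second row, so the row and the siRNA are partly mixed.

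Levels below are scaled log2 signals, that is, log2 of the background-corrected spot signal minus the 75th percentile of its array. A level can be compared between arrays for 1 probe, not between probes. A change is the mean of the 3 Foxo3 siRNA arrays minus the mean of the 3 nontargeting arrays, with its standard error and its adjusted p from limma (Benjamini-Hochberg over 19224 tested features, threshold 0.05).

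Of the 31 genes, 28 had a probe bright enough to be tested, and each of these 28 probes was well above background on all 6 arrays. Hexa, the α subunit of β-hexosaminidase, was well above background on 1 of 3 arrays in each group. Lipa, the acid lipase, was above it on no array, and neither of the 2 Mitf probes was above it on more than 1 array of a group. For these 3 genes no change could be measured.

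Tfeb, Ctsd, Gusb, Scarb2 and Lamp1 were lower with Foxo3 siRNA and Atp6v1a was higher. The other 22 tested genes did not pass the threshold. Over all features tested 14.2% were lower and 13.7% higher (27.8% in either direction), against 5 and 1 of these 28 genes (21.4%), so the share that changed was not above the background. Higher calls made up 49.1% of all calls over the array, against 78.1% and 83.2% with the arrays scaled to their medians or to the spike-in spots. The groups did not overlap for 8 genes that were lower and 5 that were higher, against 28.2% and 22.7% of all features (50.9% in either direction). Of the 28 genes, 17 lay within 0.25 of 0 on the log2 scale (60.7%, against 33.7% of all features) and 2 changed at least 2-fold (7.14% against 10.1%). These shares are not like for like. The 28 probes were bright on every array, while all features include probes bright throughout a single group only. Scaling to the array medians or to the spike-in spots shifts every gene, and these counts were not made there. The median change was −0.14, against −0.16 for all features, but with the arrays scaled to their medians or to the spike-in spots both medians turned positive (0.18 and 0.16, and 0.25 and 0.23).

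**Figure D1:**
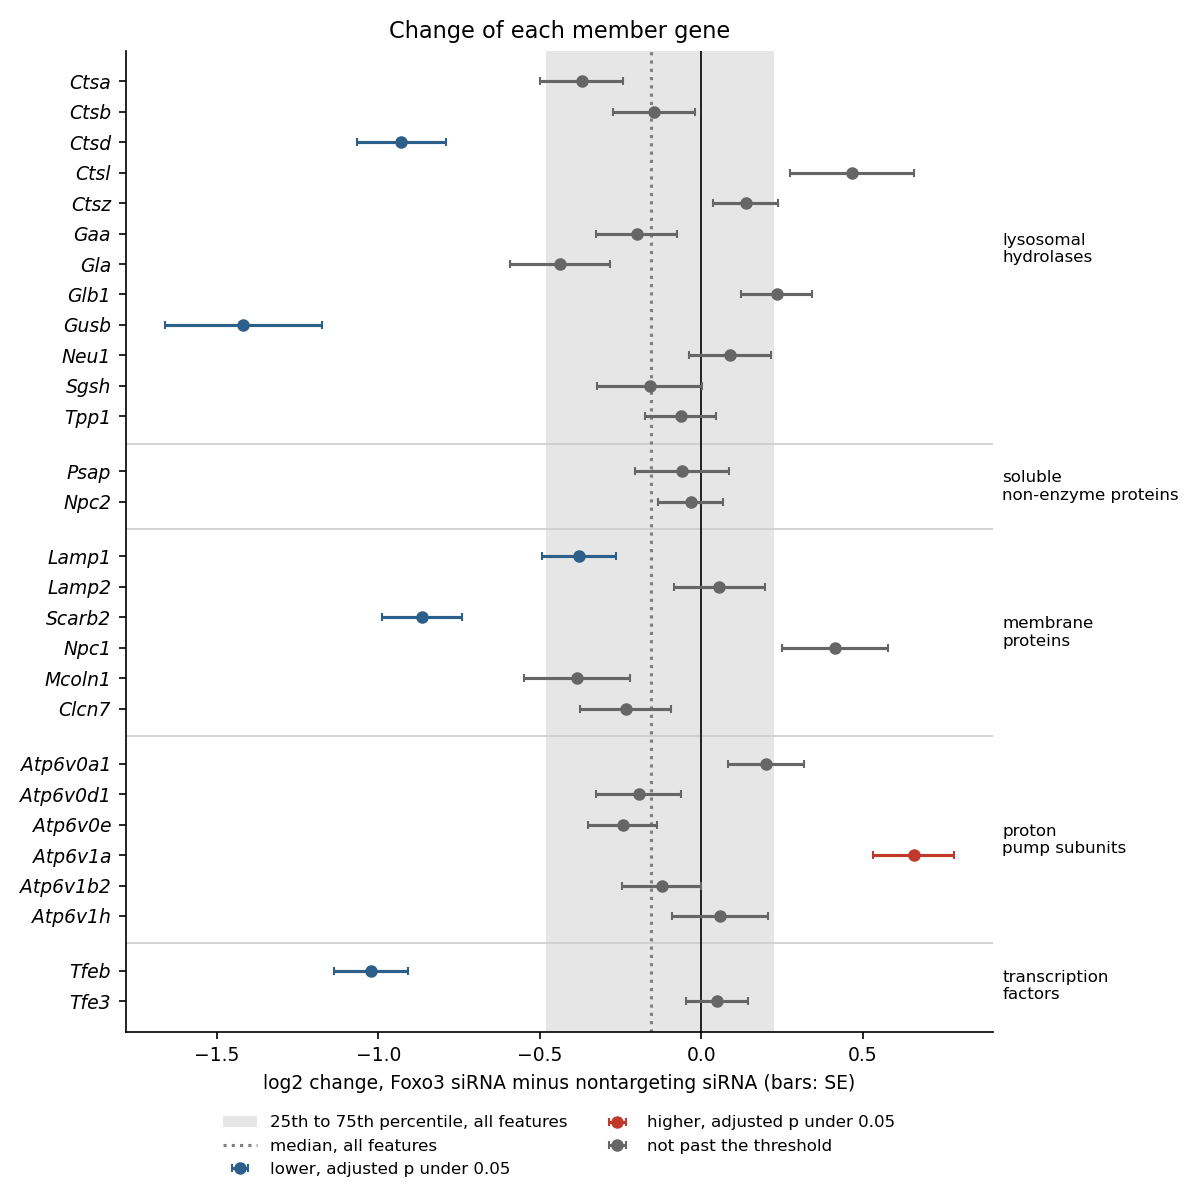
Change of each tested gene by role on the log2 scale (points, with bars of 1 SE), coloured where the adjusted p was under 0.05, over the range from the 25th to the 75th percentile of all features (grey band) and their median (dotted line). Tfeb, Ctsd, Gusb and Scarb2 lie left of the band, and Atp6v1a, Ctsl, Npc1 and Glb1 lie right of it.

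Among the transcription factors, Tfeb was 2.03-fold lower with Foxo3 siRNA, while Tfe3 did not pass the test. Tfeb, measured by a probe on NM_001161722 (mm9 chr17:47929089-47929148), read −0.90, −0.99 and −0.84 after Foxo3 siRNA against 0.09, −0.00 and 0.25 after nontargeting siRNA. All 3 Foxo3 siRNA arrays lay well under the nontargeting arrays, and the spread within each group was small beside the gap. The change was −1.02 (SE 0.11, adjusted p = 0.00252 in limma), a level of 49.2% of nontargeting. A second Tfeb probe on ENSMUST00000113284 gave −0.89 (adjusted p = 0.0337 over all probes), though only 1 of 3 Foxo3 siRNA arrays measured it well above background. In the authors' deposited table the first probe had an adjusted p of 0.0456.

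Tfe3, which binds the same element as TFEB, read 5.11, 5.08 and 5.01 after Foxo3 siRNA against 4.99, 5.02 and 5.04 after nontargeting siRNA. The groups overlapped, and the change was 0.05 (SE 0.10, adjusted p = 0.710 in limma). Its second probe gave 0.09, also short of the threshold (adjusted p = 0.597 over all probes).

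The hydrolases split into 2 genes that fell and 10 that did not pass the test. Ctsd, which encodes the aspartic protease cathepsin D, read 6.89, 6.62 and 7.03 after Foxo3 siRNA against 7.74, 7.73 and 7.87 after nontargeting siRNA (NM_009983, mm9 chr7:149561962-149562021). The lowest nontargeting array was above the highest Foxo3 siRNA array. The change was −0.93 (SE 0.14, adjusted p = 0.00579 in limma), a level of 52.6% of nontargeting, and a second probe of the same transcript gave −0.80 (adjusted p = 0.0127 over all probes).

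Gusb, which encodes β-glucuronidase, had the largest change of the 28 genes. It read 1.10, 1.22 and 1.45 after Foxo3 siRNA against 2.24, 2.62 and 3.16 after nontargeting siRNA (NM_010368, mm9 chr5:130465133-130465192). The nontargeting arrays were widely spread, but the lowest of them was above every Foxo3 siRNA array. The change was −1.42 (SE 0.24, adjusted p = 0.00915 in limma), a level of 37.4% of nontargeting. This probe was printed 10 times on each array, and the SD between its spots was 0.05 to 0.09, so spot noise was small beside the spread between arrays.

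The other hydrolases moved less. Ctsl, the cysteine protease cathepsin L, had the highest change of its class at 0.47 (SE 0.19, adjusted p = 0.110). It read 0.76, 0.76 and 0.70 after Foxo3 siRNA against −0.12, 0.35 and 0.61 after nontargeting siRNA, so the groups stood apart but the nontargeting arrays were widely spread. Gla, which encodes α-galactosidase A, had a change of −0.44 (adjusted p = 0.0787), and Ctsa, the carboxypeptidase that protects β-galactosidase and sialidase in a complex, −0.37 (adjusted p = 0.0746). Their groups did not overlap either. The partners of Ctsa in that complex had positive changes short of the threshold, 0.23 for Glb1 (β-galactosidase, adjusted p = 0.145) and 0.09 for Neu1 (sialidase, adjusted p = 0.599).

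Gaa, which splits glycogen, Sgsh, which removes sulfate from heparan sulfate, and the cathepsin gene Ctsb had changes of −0.20, −0.16 and −0.15. Ctsz, another cathepsin gene, had a change of 0.14, and Tpp1, a peptidase that trims tripeptides from protein ends, had the smallest of the class at −0.06. None of these 5 passed the threshold, with adjusted p from 0.242 to 0.663. The median change of the 12 tested hydrolases was −0.15. Set against the nontargeting mean of each gene, the median hydrolase stood at −0.10, −0.28 and −0.09 on the Foxo3 siRNA arrays and at −0.13, −0.00 and 0.15 on the nontargeting arrays, so as a class the groups overlapped.

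Neither soluble protein without enzyme activity passed the test. Psap, the precursor of the saposins that help enzymes reach lipids, read 2.65, 2.41 and 2.24 after Foxo3 siRNA against 2.46, 2.66 and 2.36 after nontargeting siRNA. Npc2, which carries cholesterol to NPC1, read 7.24, 7.11 and 7.21 after Foxo3 siRNA against 7.24, 7.27 and 7.15 after nontargeting siRNA. The groups overlapped for both genes, and their changes were −0.06 (SE 0.15, adjusted p = 0.762) and −0.03 (SE 0.10, adjusted p = 0.808).

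Of the 6 membrane proteins, Scarb2 and Lamp1 were lower. Scarb2, also called LIMP-2, carries β-glucocerebrosidase to the lysosome. It read 1.09, 1.08 and 1.18 after Foxo3 siRNA against 1.79, 2.01 and 2.13 after nontargeting siRNA (NM_007644, mm9 chr5:92877611-92878944, across a splice junction). The groups were far apart, with a change of −0.87 (SE 0.12, adjusted p = 0.00522 in limma) and a level of 54.9% of nontargeting.

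Lamp1, a heavily glycosylated protein of the lysosomal membrane, read 8.21, 8.12 and 8.21 after Foxo3 siRNA against 8.49, 8.46 and 8.71 after nontargeting siRNA (NM_010684, mm9 chr8:13175277-13175336). The groups did not overlap, but the gap was small. The change was −0.38 (SE 0.11, adjusted p = 0.0497 in limma), just inside the threshold. The call was lost when any single array was left out, and with scaling to the spike-in spots the change was 0.0045 (adjusted p = 0.999).

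Npc1, which exports cholesterol from the lysosome, had the highest change of the membrane proteins at 0.41 (SE 0.16, adjusted p = 0.0998). It read −1.30, −1.09 and −0.96 after Foxo3 siRNA against −1.81, −1.39 and −1.39 after nontargeting siRNA, without overlap. Mcoln1, the calcium channel whose opening activates calcineurin near TFEB, had a change of −0.39 (adjusted p = 0.119), and Clcn7, the chloride and proton exchanger, −0.23 (adjusted p = 0.232). In both the groups overlapped.

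Lamp2 was measured by probes for different transcripts, and these differed. Lamp2 transcripts end in alternative last exons that encode different membrane anchors and tails. One probe was designed on NM_010685 and the other on NM_001017959. The NM_010685 probe read 4.31, 4.37 and 4.35 after Foxo3 siRNA against 4.04, 4.33 and 4.50 after nontargeting siRNA, a change of 0.06 (SE 0.14, adjusted p = 0.770). The NM_001017959 probe read 2.63, 2.48 and 2.48 after Foxo3 siRNA against 2.93, 3.22 and 3.16 after nontargeting siRNA, a change of −0.57 (SE 0.12, adjusted p = 0.0206 over all probes). The first overlapped between the groups and the second did not. The difference between the probes was −1.81 ± 0.12 (SD, n = 3) with Foxo3 siRNA and −1.18 ± 0.14 (SD, n = 3) with nontargeting siRNA, with an exact two-sided permutation p of 0.1, the smallest that 3 arrays against 3 allow (0.4 after Benjamini-Hochberg adjustment over 12 probe pairs). This pair was singled out after its values were seen, and the call on the second probe was lost in 9 of 15 alternative analyses, among them those without Foxo3 siRNA replicate 2 or 3 and without nontargeting siRNA replicate 2 or 3.

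Across the 28 tested genes, 10 had more than 1 bright probe, and in 8 of these all probes had changes of the same sign. The exceptions were Lamp2 and Atp6v0a1, whose second probe had −0.09 (adjusted p = 0.632 over all probes). For Gusb the probes had unlike sizes. The second probe, on ENSMUST00000122994 (mm9 chr5:130475555-130475614), gave −0.32 (adjusted p = 0.229 over all probes) against −1.42 for the first. The gap between the probes changed by 1.10 between the groups, with the same exact permutation p of 0.1, also noticed after its values were seen. For Ctsd and Atp6v1a both probes passed the threshold in the same direction. Both Tfeb probes did too, but the second was kept through the nontargeting arrays, which favours a negative change.

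**Figure D2:**
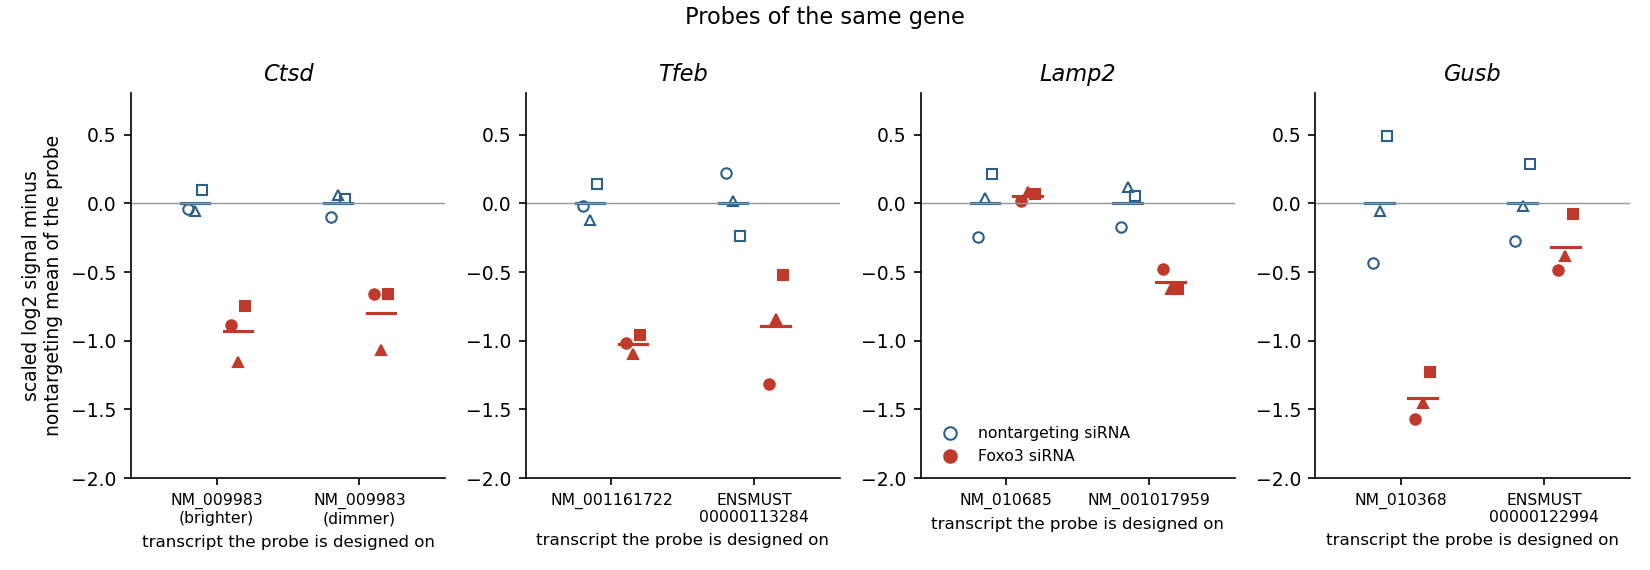
Scaled log2 signal of the bright probes of Ctsd, Tfeb, Lamp2 and Gusb on each array, minus the nontargeting mean of the probe (blue open symbols nontargeting siRNA, red filled symbols Foxo3 siRNA, short lines the mean of 3 arrays; circle, triangle and square are replicates 1, 2 and 3). The Ctsd probes fall by similar amounts (−0.93 and −0.80), while the Lamp2 probes (0.06 and −0.57) and the Gusb probes (−1.42 and −0.32) differ.

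The proton pump had 1 subunit that rose and 5 that did not pass the test. Atp6v1a encodes subunit A of the V1 sector, which holds the site that splits ATP. It read 5.29, 5.46 and 5.41 after Foxo3 siRNA against 4.54, 4.77 and 4.87 after nontargeting siRNA (NM_007508, mm9 chr16:44085826-44085885). Every Foxo3 siRNA array was above every nontargeting array, and the change was 0.66 (SE 0.12, adjusted p = 0.0129 in limma), a level 1.58-fold that of nontargeting. A second probe of the transcript gave 0.42 (adjusted p = 0.0414 over all probes). Without nontargeting siRNA replicate 2 the call on the gene was lost (adjusted p = 0.0570).

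Atp6v1b2, which encodes subunit B2, the partner of subunit A in the ATP-splitting ring, had a change of −0.12 (SE 0.12, adjusted p = 0.450), short of the threshold. Atp6v1h, which encodes the regulatory subunit H, had the smallest change of the pump at 0.06 (SE 0.15, adjusted p = 0.773). In the V0 sector the changes were 0.20 for Atp6v0a1, −0.19 for Atp6v0d1 and −0.24 for Atp6v0e, with adjusted p of 0.224, 0.278 and 0.129. Atp6v0e read 7.10, 7.10 and 7.16 after Foxo3 siRNA against 7.23, 7.39 and 7.47 after nontargeting siRNA, apart but close. The median change was −0.03 for the 6 pump subunits, −0.31 for the 6 membrane proteins and −0.15 for the 12 hydrolases, and whether these medians differ was not tested.

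**Figure D3:**
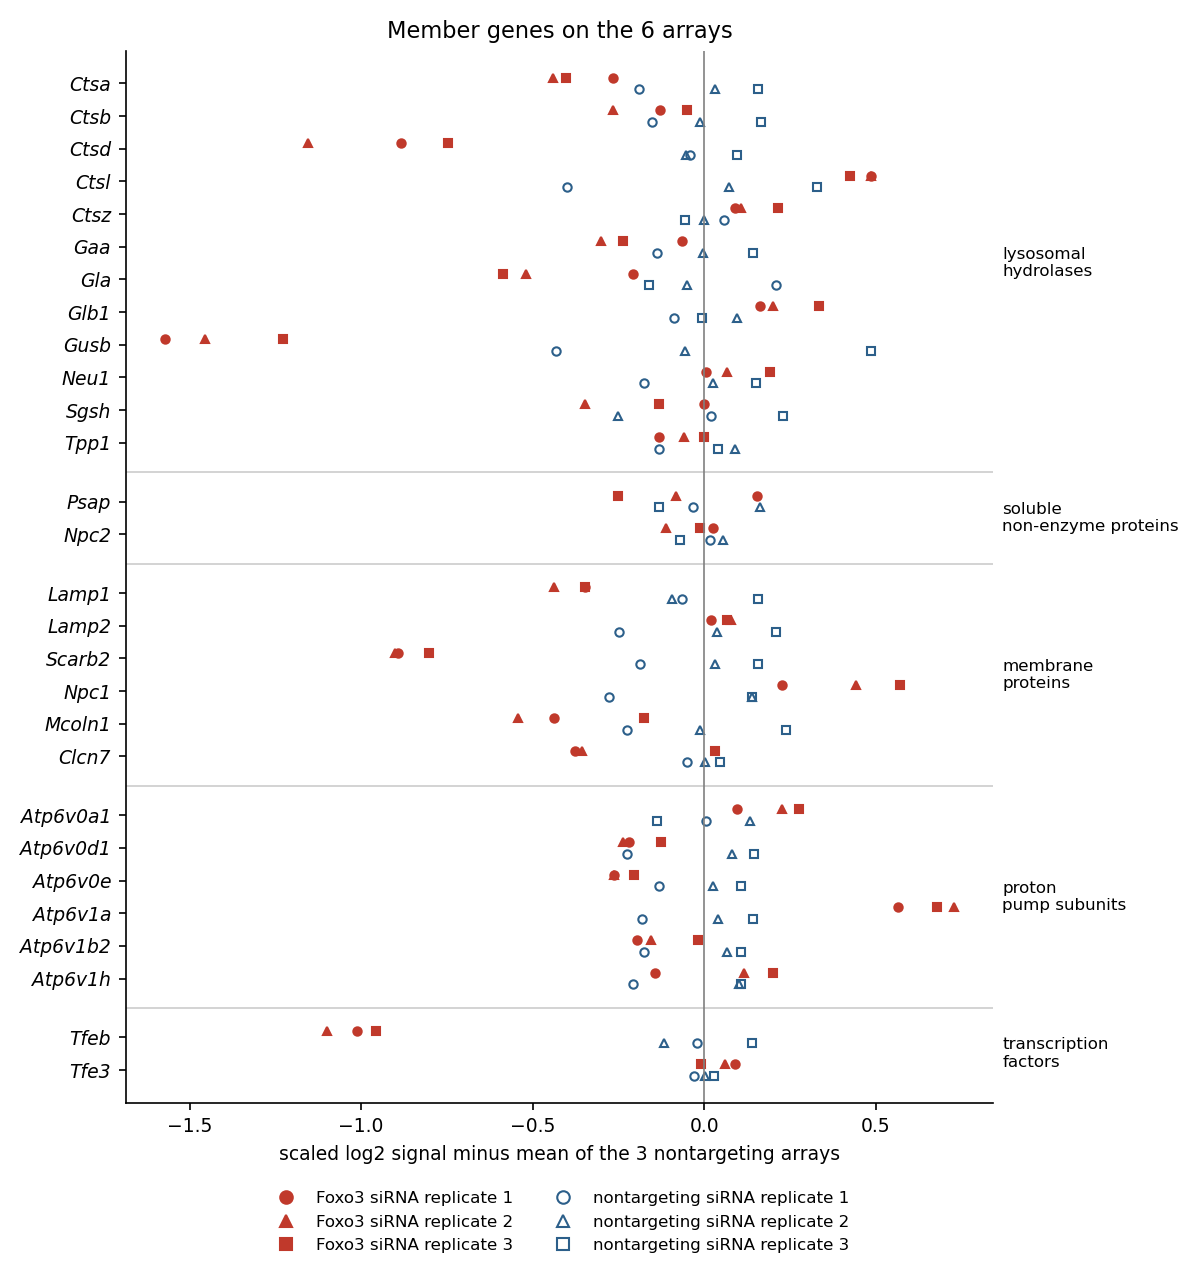
Scaled log2 signal of each tested gene on the 6 arrays, minus the mean of the 3 nontargeting arrays (horizontal axis), by role (red filled symbols Foxo3 siRNA, blue open symbols nontargeting siRNA, one symbol shape per replicate number). The red points of Tfeb, Ctsd, Gusb and Scarb2 lie far to the left and those of Atp6v1a to the right. For 13 of the 28 genes red and blue points do not overlap, against 50.9% of all features.

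Calls depended on the scaling and on the slide row. With the arrays scaled to their medians, Tfeb (−0.71, adjusted p = 0.0459), Gusb (−1.11, adjusted p = 0.00317) and Atp6v1a (0.97, adjusted p = 0.00654) passed in limma, while Ctsd (−0.62, adjusted p = 0.0944), Scarb2 (−0.55, adjusted p = 0.136) and Lamp1 (−0.07, adjusted p = 0.895) did not. Ctsl (0.78, adjusted p = 0.0374) and Npc1 (0.72, adjusted p = 0.0483) passed with that scaling. None of the 28 genes passed in limma with spike-in scaling, where 2 had an unadjusted p under 0.05, and of the 6 called genes Lamp1 alone turned sign there. Standard errors were larger with that scaling. The SE of Gusb went from 0.24 to 0.458, with a change of −1.035, and that of Scarb2 from 0.12 to 0.458, with a change of −0.48. With the row as a block, Tfeb (−1.01, adjusted p = 0.0308) and Scarb2 (−0.89, adjusted p = 0.0480) passed, while Ctsd (−0.88, adjusted p = 0.0619), Gusb (−1.57, adjusted p = 0.0631), Atp6v1a (0.57, adjusted p = 0.118) and Lamp1 (−0.35, adjusted p = 0.244) did not. Within row 1, which held Foxo3 siRNA replicate 1 and the 3 nontargeting arrays, the changes were the same, and no gene passed in limma (5 of the 28 had an unadjusted p under 0.05, and the adjusted p of the 6 genes ran from 0.0731 for Tfeb to 0.332 for Lamp1). The lone Foxo3 siRNA array of row 1 was assumed to vary like the nontargeting arrays. Row 2 held Foxo3 siRNA arrays only and gives no value. In the authors' deposited table Tfeb passed an adjusted p of 0.05, while Scarb2 (−0.92, adjusted p = 0.0515) and Ctsd (−0.90, adjusted p = 0.0708) did not, and of the 10 Gusb spots 2 passed.

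Macrophages are rich in lysosomes, and their markers were examined beside the genes that fell. Of 12 macrophage markers on the array, 6 could be tested. C1qb, Emr1 and Marco were bright on 2 of 3 Foxo3 siRNA arrays and passed the filter through the nontargeting arrays, which favours a negative change. The other 3, bright on all 6 arrays, were Csf1r, the receptor that defines the lineage (−0.92, adjusted p = 0.0641), the integrin gene Itgam (−0.41, short of the threshold) and Cd68 (−0.38, adjusted p = 0.0477), which is itself a lysosomal membrane protein. Of the 6 tested, 2 were lower and 0 higher (33.3%), and all 6 had negative changes. These 2 were Cd68 and C1qb (−0.65, adjusted p = 0.0316). The log2 of the summed marker signal was 5.73 to 5.95 on the Foxo3 siRNA arrays and 5.89 to 6.54 on the nontargeting arrays. The groups overlapped in this sum. Itgam alone read 5.56 to 5.78 and 5.68 to 6.3 on these arrays, so the sum mostly follows that gene. Against backgrounds of 14.2% lower and 13.7% higher, 1 of 3 tested mast cell markers was lower (Hdc, bright on 2 of 3 Foxo3 siRNA arrays). None of 2 neutrophil markers or 1 fibroblast marker passed. Of 6 megakaryocyte markers 3 were higher (Treml1 2.50, Itga2b 1.26 and Gp1ba 0.59). The other 3 had negative changes short of the threshold (Gp9 −0.55, Gp1bb −0.17 and Pf4 −0.16). Of 10 erythroid markers 1 was lower (Alas2, −0.41) and 1 higher (Tfrc, 0.60). Whether the cell types of these markers had a part in the lysosomal changes was not tested. In these bulk samples fewer cells of a type and less RNA per cell cannot be told apart.

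The E-box was common in these promoters, among genes that changed and genes that did not. The window searched runs from 250 bases before to 50 after the start site, and RefSeq promoters matched 27 of the 31 genes (Ctsb, Npc1, Atp6v1b2 and Atp6v1h had no entry). The core CACGTG, which reads the same on both strands, was in 13 of the 27 (48.1%), against 8.09% of all genes. The longer form TCACGTGA, which contains the core, was in 8 of the 27 (29.6%) against 1.13%. By role, the core was in 7 of 13 hydrolases, 3 of 5 membrane proteins and 3 of 4 pump subunits, and in 0 of the 3 transcription factors and 0 of the 2 soluble proteins.

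Genes with and without the core overlapped in their changes. The 13 tested genes with the core had a median change of −0.23 and ranged from −0.93 (Ctsd) to 0.66 (Atp6v1a), with 2 lower and 1 higher. The 11 without it had a median of −0.03 and ranged from −1.42 (Gusb) to 0.20 (Atp6v0a1), with 3 lower. Gusb, Scarb2 and Tfeb, all lower, had no core in the window. Lamp1, whose 4 cores did not lie in the longer form, changed less than any of them. Ctsd and Atp6v1a, which moved in opposite directions, each had the longer form in the stretch printed above. The FOXO motif TGTTTAC, searched on both strands, was in 0 of the 27 windows and in 4.05% of all genes, and the GATA motifs AGATAA and TGATAA were in 5 and 4 of the 27 against 12.7% and 10.4% of all genes. A match shows these letters only, not binding.

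**Figure D4:**
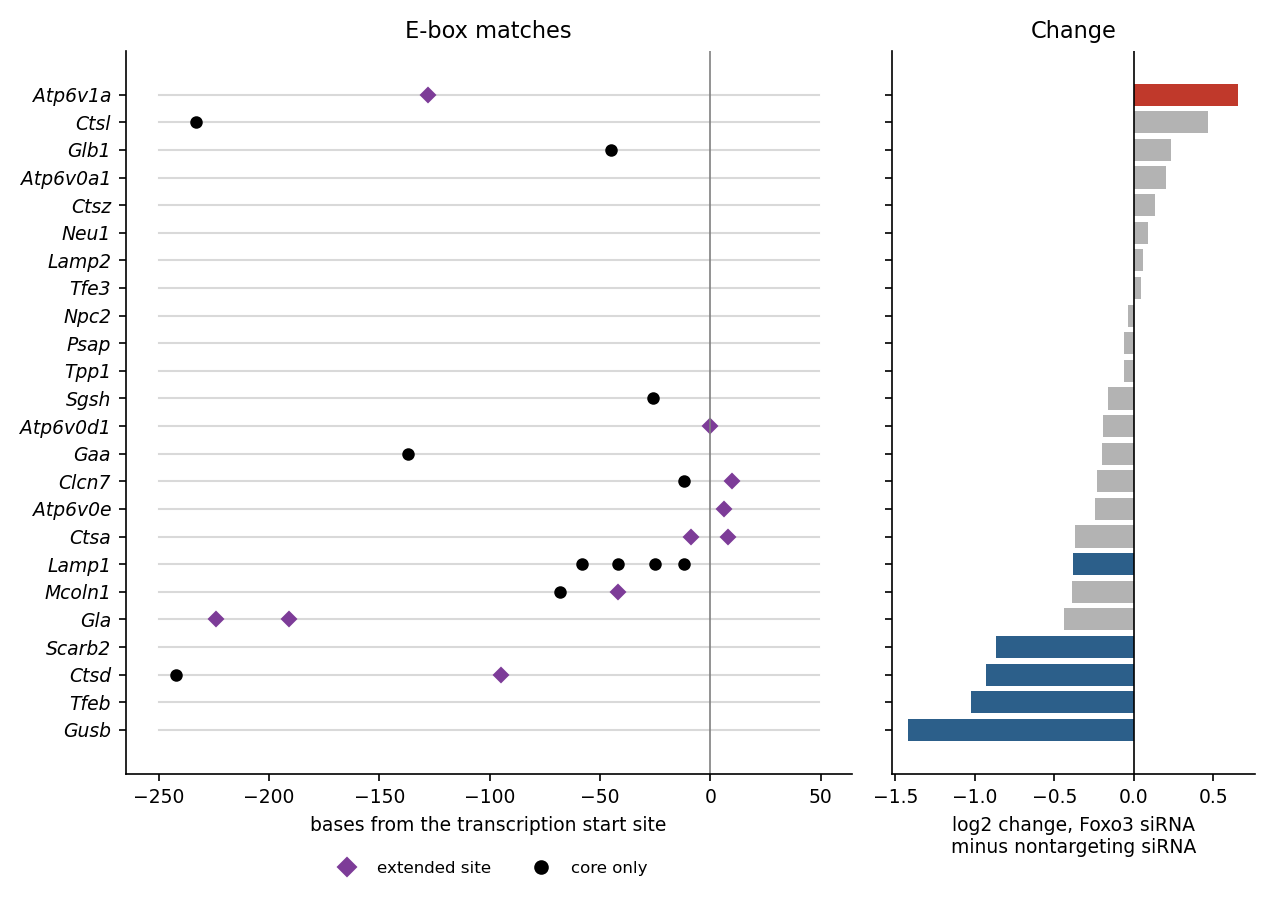
Positions of E-box cores in the promoters of the 24 tested genes with a RefSeq promoter, in bases from the start site (left; purple diamonds mark the longer form, black circles the core alone), and the log2 change of each gene (right; blue lower, red higher, grey not past the threshold), sorted by change. Cores stand in promoters across the whole range of changes, from Ctsd (−0.93) to Atp6v1a (0.66).

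Other genes of the lysosome and of its control, sorting and positioning, taken from lists by role, changed in both directions. Of 130 genes on these lists 127 had a probe and 105 were tested, of which 22 were lower and 12 higher (32.4%, against the background of 27.8%). Among 27 other hydrolases, 5 were lower and 5 higher (37.0%). Ids, the iduronate sulfatase, rose by 1.78 (SE 0.19, adjusted p = 0.00210), and Pla2g15, the lysosomal phospholipase, rose by 1.21 (SE 0.13, adjusted p = 0.00227). Lgmn, the asparagine-specific protease legumain, fell by 1.49 (SE 0.19, adjusted p = 0.00348). Over the alternative analyses the change of Ids ran from 0.80 to 2.17 and that of Pla2g15 from 1.10 to 1.59. The call on Ids was lost in the authors' deposited table and that on Lgmn with spike-in scaling. In row 1 alone, with its lone Foxo3 siRNA array, the calls on Ids, Pla2g15 and Lgmn were lost. One of 4 soluble cofactors was lower (Creg1, −0.72, adjusted p = 0.0110).

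Of 20 other membrane proteins 6 were lower and 1 higher (35%). Over all features 14.2% were lower and 13.7% higher (27.8% in either direction). Slc48a1, which carries heme out of the lysosome, read 4.30, 4.24 and 4.02 after Foxo3 siRNA against 5.44, 5.61 and 5.55 after nontargeting siRNA. Its groups were far apart, and it fell by 1.35 (SE 0.12, adjusted p = 0.00140), a larger change than in any of the 6 membrane proteins described above. Cd63, a tetraspanin, had −1.85 (adjusted p = 0.00369, bright enough on 2 of 3 Foxo3 siRNA arrays) and Sidt2 −0.89 (adjusted p = 0.00477). The calls on Slc48a1 and Sidt2 were lost with spike-in scaling and in row 1 alone, and that on Sidt2 also with scaling to the array medians. Those on Cd63 and Sidt2 were lost in the authors' deposited table. Of 13 other pump subunits 3 were lower and none higher (23.1%, against the same 27.8%). They were Atp6v1e1 (−0.60, adjusted p = 0.0103), Atp6v1g2 (−0.68, adjusted p = 0.0473) and Atp6v0b (−0.52, adjusted p = 0.0480). Atp6v1g2 was bright on 2 of 3 Foxo3 siRNA arrays and passed the filter through the nontargeting group, and the calls on Atp6v1g2 and Atp6v0b were lost in 16 of 20 and 15 of 21 alternative analyses.

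Genes listed mainly for control of TFEB by mTORC1, the Rag GTPases, folliculin or calcineurin had 5 lower and 4 higher of 19 tested (47.4%, against the background of 27.8%). Ppp3ca encodes a catalytic subunit of calcineurin, which removes phosphate from TFEB. It read 4.93, 4.95 and 4.95 after Foxo3 siRNA against 5.76, 5.94 and 5.99 after nontargeting siRNA, a change of −0.95 (SE 0.11, adjusted p = 0.00265). The other calcineurin genes tested, Ppp3cb (0.20, adjusted p = 0.2965) and Ppp3r1 (−0.05, adjusted p = 0.775), did not pass the threshold. Tsc1, which restrains mTORC1, had a change of −1.09 (SE 0.13, adjusted p = 0.00286), and Mlst8, a subunit of mTORC1, one of 0.97 (SE 0.12, adjusted p = 0.00373). Ppp3ca, Tsc1 and Mlst8 each separated the groups completely. Flcn (−0.83, adjusted p = 0.00847) and Fnip1 (−0.74, adjusted p = 0.00467), which form the folliculin complex that acts on the Rag GTPases, were also lower and were named after their values were seen. The remaining called genes of this list went both ways. Akt1s1 (−0.79, adjusted p = 0.00409) was lower. Rraga (0.65, adjusted p = 0.0347), Lamtor2 (0.48, adjusted p = 0.0272) and Rragd (0.42, adjusted p = 0.0445) were higher. The calls on Ppp3ca and Fnip1 were each lost in 4 of 21 alternative analyses and that on Flcn in 6, in each case including scaling to the array medians, spike-in scaling, row 1 alone and the authors' deposited table. Those on Tsc1 and Mlst8 were lost with spike-in scaling and in row 1 alone. In mannose 6-phosphate sorting, which delivers new hydrolases, 2 of 10 genes (20%) were higher, Gga2 (0.70, adjusted p = 0.0144) and M6pr (0.57, adjusted p = 0.0149). Of 12 genes that tether or move lysosomes, Rilp (−0.64, adjusted p = 0.00880) and Plekhm1 (−0.47, adjusted p = 0.0229) were lower (16.7%). The calls on Creg1, Atp6v1e1, M6pr and Rilp were each lost in 7 of 21 alternative analyses. These included spike-in scaling, the row block, the authors' deposited table and the fit without nontargeting siRNA replicate 2. For Creg1, Atp6v1e1 and Rilp they also included scaling to the array medians. The call on Gga2 was lost in 5 of 21 and that on Plekhm1 in 11. Without Foxo3 siRNA replicate 3 those on Gga2 and M6pr were lost. Akt1s1, Rraga, Lamtor2 and Rragd were not followed through the alternative analyses.

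**Figure D5:**
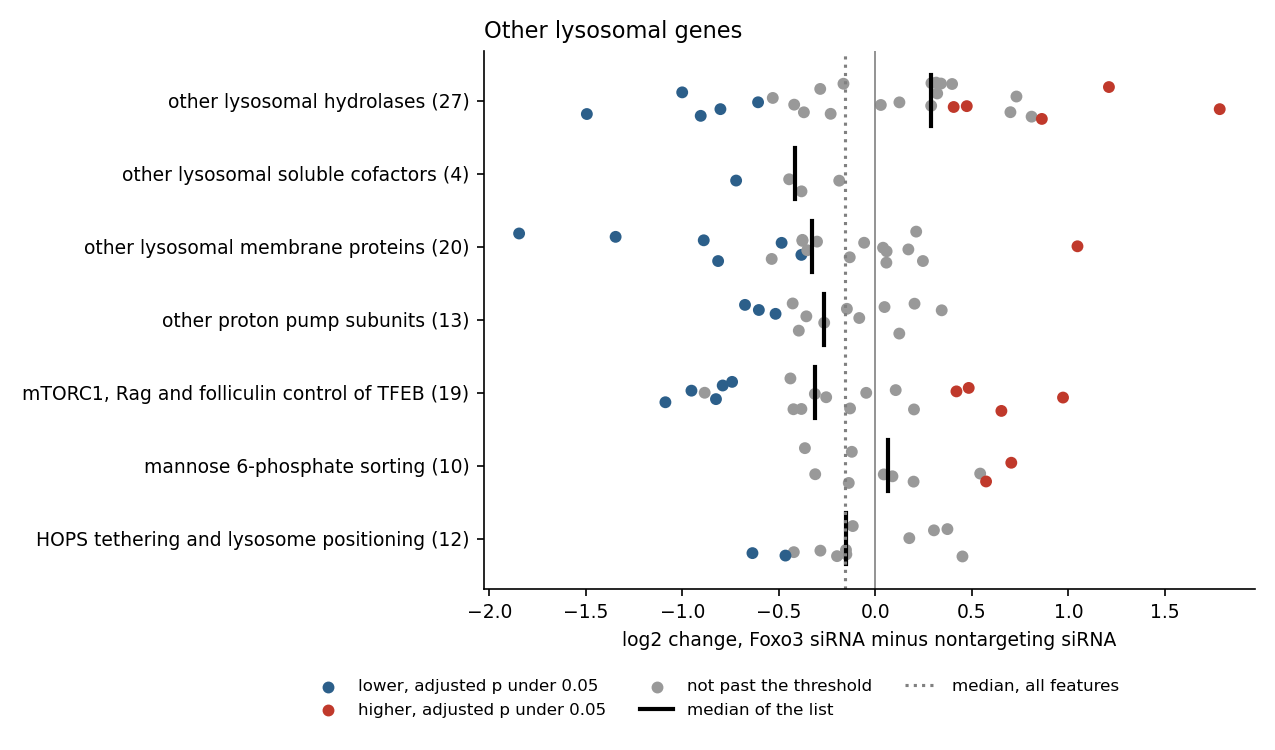
Log2 change of each tested gene on 7 lists of other genes of the lysosome and of its control, sorting and positioning, with the number tested in brackets (blue lower and red higher at an adjusted p under 0.05, grey not past it, black line the median of the list, dotted line the median of all features). The other hydrolases run from −1.49 (Lgmn) to 1.78 (Ids), and the called pump subunits are all lower.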

How the data were processed

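Total RNA of 6 samples was labelled with Cy3 and hybridised to 1-colour Agilent mouse arrays. Per the file headers, spot intensity was background-subtracted and detrended by Feature Extraction 10.7.3.1, with no scaling between arrays. The authors' deposited table holds the same intensity with a log2 fold change, a p-value and an adjusted p-value per spot, and the submitters' processing notes name limma. The base of its fold change, not given in the sources used here, was read from its slope of 0.946 on the log2 signal difference.

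Control spots (3671 per array) and outlier spots were left out, each array's 75th percentile was taken from its log2 signals and spots of a probe were averaged. A probe was kept where every array of one group or the other showed it well above background (26991 probes), and the brightest stood for its gene name. The groups were compared with limma 3.58.1 (R 4.3.3; lmFit and eBayes, two-sided, no covariate), with Benjamini-Hochberg adjustment over 19224 features. Second probes were fitted over the kept probes. On simulated data with 19224 features, 100 were changed by 1 and 100 by 2 on the log2 scale, and 56% and 88% of these were recovered. That is a far smaller share of changed features than the 27.8% called here. The adjustment depends on that share, so these rates do not give the recovery in these data. The number of arrays limits the precision. Replicate numbers did not pair the samples (correlations of deviations 0.18, −0.33 and 0.13).

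The genes and lists were chosen with earlier results of these data known. The rule for named genes gave every gene of the 31, with arrays for those past the threshold and for the extremes of each class, and up to 3 genes per list with the smallest adjusted p. Sequence searches used Python 3.11.15 on RefSeq promoters (GRCm38.p6). Positions of probes are those of the array design (mm9). Alternatives varied scaling, background, filter, probe choice, variance model, blocks and arrays.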

Additional observations from a re-analysis of the deposited data

How the results depend on the processing

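Over 21 alternative analyses, 502 of 588 values of the 28 genes kept direction and side of the threshold, 39 calls were lost, 12 were gained, 34 changes that were never called turned sign, and 1 further call was lost with its sign turned (Lamp1, 0.0045 with spike-in scaling, adjusted p = 0.999). With the arrays scaled to their medians, 2 genes were lower and 3 higher, all features had 884 lower calls, and the median change of the genes was 0.18. With spike-in scaling, no gene was called, with 163 lower and 807 higher features and a median of 0.25. The median of the genes minus that of all features was 0.02, which these scalings cannot change because they shift every gene alike, but it became −0.13 where all 6 arrays had to pass the filter and −0.14 where dim probes stayed in. Without a filter on dim probes, 1 gene was lower and 0 higher, with 396 and 789 features. Array weights gave 8 genes and 4092 features lower. With the slide row as a block, 2 genes were lower and 0 higher, with 587 and 972 features. Row 1 alone gave 0 and 0 genes, with 188 and 379 features. In the authors' deposited table the counts were 1 and 0 genes, with 270 and 594 features. Higher calls made up 49.1% of all calls, against 78.1% with median scaling, 83.2% with spike-in scaling, 66.6% without the filter, 62.4% with the row block, 66.8% in row 1 and 68.8% in the authors' table. Leaving out 1 array gave 4 genes lower in each case and 0 to 1 higher, 892 to 2382 features lower and 1279 to 2253 higher, and a median of −0.18 to −0.07. Cd63, Atp6v1g2 and the RefSeq Foxo3 probe gave no value where all 6 arrays had to be above background. The cause of these differences was not tested.

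The samples share only a replicate number. With the replicate number as a block, 5 genes were lower and 2 higher, as Gla and Npc1 were added and Lamp1 was lost.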

Other observations

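The nontargeting arrays differed among themselves over the lysosomal genes in one direction for most genes, a count given here as a description and chosen after the values were seen. Nontargeting siRNA replicate 1 was the lowest of the 3 arrays for 19 of the 28 genes (67.9%, against 37.0% of all features), and replicate 3 was the highest for 20 (71.4%, against 34.6%). Set against the nontargeting mean of each gene, the median of the 28 genes was −0.13, 0.03 and 0.14 on nontargeting replicates 1, 2 and 3, and −0.13, −0.20 and −0.03 on the Foxo3 siRNA arrays. The medians of the 2 groups of arrays overlapped, and the cause of the spread was not tested.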
